A study of Mus musculus with 28 samples.

Results

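Brg1-bound regions were mapped in mouse ESC-derived mesodermal cultures at day 4 from the regions enriched in 3 anti-FLAG ChIP-seq replicates. Overlapping listed regions (1 bp or more) were joined across replicates, and those found in 2 or 3 replicates were kept as Brg1-bound, which gave 2390 of 13843 joined regions. ChIP-seq sequences the DNA pulled down with an antibody, and an enriched region is a stretch with more reads than input chromatin. The series holds 28 samples, of which 17 have a list of enriched regions and 11 are inputs. For the FLAG samples the labels give the Brg1f/f; Actin-CreER line, in which CreER is made from an actin promoter and both Brg1 alleles are floxed, with normal Brg1 levels, whereas the methods describe ESCs whose own Brg1 gene carries a FLAG tag. The cell line of these 3 samples therefore rests on sources that differ, and the labels call them triplicates where the methods call them duplicates. H3K27ac (2 and 2 replicates), H3K27me3 (3 and 3) and Suz12 (2 and 2) were mapped in Brg1f/f; Actin-CreER cultures given 200 nM 4-hydroxytamoxifen (4-OHT), which deletes Brg1, or the solvent tetrahydrofuran alone (control). All cultures were embryoid bodies that were dissociated on day 2 and reaggregated for 40 h with VEGF, Activin A and BMP4, so each is a mixture of cells, and neither the binding map nor the marks can be assigned to a cell type within it. For its mesoderm markers the paper proposes that residual Brg1 activity may remain after 4-OHT, because the protein disappears gradually. Marks were mapped on day 4 only, so a mark lost after 4-OHT cannot be told from one never gained.

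Brg1 is the ATPase of BAF (SWI/SNF) complexes, which use ATP to slide or evict nucleosomes and so open DNA to transcription factors. It has no sequence preference of its own that would fix where it binds, and in many tissues BAF complexes are found at promoters and at distal enhancers carrying H3K27ac, the acetylation of histone H3 that marks active regulatory DNA. In early mesoderm these elements serve the Nodal, Wnt, BMP and FGF pathways and the T-box, GATA, Fox and homeobox factors that turn epiblast cells into mesoderm. H3K27me3 and Suz12, a subunit of the complex that writes it, mark the opposite state, in which developmental genes are kept silent.

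The 126 regions held by all 3 FLAG replicates ("all-3 regions") had the most replicate support, and 7 of them are shown here as DNA so that the bound sequence can be read beside the calls. Sequences are from the mm9 build, plus strand, with whole regions where these were at most 300 bp and otherwise the central 300 bp. Capitals mark matches, on either strand, to consensus sites of T-box, GATA, Fox, Foxh1, AP-1, Lef/Tcf, Pou octamer and Zic factors, whose letters are given with their shares at the end. A match describes letters and is no evidence that a factor was there. The regions at Cbx8 and Smad6 are all-3 regions of at most 300 bp near genes of the lists below that held a consensus match (a further one, at Ror2, held none and is not shown), and the others were chosen after their values were seen: the widest all-3 region (Zfp64), its neighbour (Sall4), a Nodal co-receptor gene (Tdgf1), the all-3 region farthest from a protein-coding gene (Galc) and a region with no H3K27ac (Adam23).
Zfp64, central window, chr2:168666363-168666662: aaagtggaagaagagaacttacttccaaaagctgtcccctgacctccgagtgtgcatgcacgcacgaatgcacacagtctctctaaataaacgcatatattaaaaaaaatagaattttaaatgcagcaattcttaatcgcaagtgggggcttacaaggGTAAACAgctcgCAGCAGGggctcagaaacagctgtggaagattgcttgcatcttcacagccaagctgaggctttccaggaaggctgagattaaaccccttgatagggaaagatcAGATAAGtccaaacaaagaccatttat
Sall4, central window, chr2:168664188-168664487: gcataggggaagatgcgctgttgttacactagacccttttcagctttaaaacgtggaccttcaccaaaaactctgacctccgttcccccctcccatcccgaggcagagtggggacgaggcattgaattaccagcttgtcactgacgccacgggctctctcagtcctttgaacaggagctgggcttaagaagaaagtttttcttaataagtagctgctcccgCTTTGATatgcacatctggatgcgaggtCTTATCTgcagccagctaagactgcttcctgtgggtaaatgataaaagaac
Tdgf1, central window, chr9:110850413-110850712: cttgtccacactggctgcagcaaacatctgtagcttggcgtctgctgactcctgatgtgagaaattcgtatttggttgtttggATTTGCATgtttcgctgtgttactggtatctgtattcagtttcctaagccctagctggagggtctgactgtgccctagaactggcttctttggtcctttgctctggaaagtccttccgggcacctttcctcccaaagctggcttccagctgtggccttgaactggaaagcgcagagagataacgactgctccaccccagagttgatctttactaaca
Galc, central window, chr12:98641376-98641675: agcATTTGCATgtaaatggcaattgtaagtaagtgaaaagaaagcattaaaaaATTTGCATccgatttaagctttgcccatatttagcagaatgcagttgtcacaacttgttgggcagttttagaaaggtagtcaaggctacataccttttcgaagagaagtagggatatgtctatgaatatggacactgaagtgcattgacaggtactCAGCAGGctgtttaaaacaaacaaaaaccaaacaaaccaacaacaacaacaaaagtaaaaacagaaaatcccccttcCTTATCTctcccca
Cbx8, whole region, chr11:118914301-118914575: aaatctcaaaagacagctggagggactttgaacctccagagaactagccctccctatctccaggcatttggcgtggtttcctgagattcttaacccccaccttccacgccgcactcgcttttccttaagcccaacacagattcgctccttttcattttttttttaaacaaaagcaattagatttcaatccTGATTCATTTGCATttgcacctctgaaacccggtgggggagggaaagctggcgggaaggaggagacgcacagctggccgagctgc
Smad6, whole region, chr9:63898101-63898375: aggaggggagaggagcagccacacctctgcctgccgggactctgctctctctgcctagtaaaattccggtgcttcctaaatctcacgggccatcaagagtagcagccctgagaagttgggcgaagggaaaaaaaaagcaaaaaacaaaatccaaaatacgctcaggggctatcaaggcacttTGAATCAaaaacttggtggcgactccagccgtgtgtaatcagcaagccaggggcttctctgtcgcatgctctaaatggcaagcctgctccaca
Adam23, whole region, chr1:63661426-63661600: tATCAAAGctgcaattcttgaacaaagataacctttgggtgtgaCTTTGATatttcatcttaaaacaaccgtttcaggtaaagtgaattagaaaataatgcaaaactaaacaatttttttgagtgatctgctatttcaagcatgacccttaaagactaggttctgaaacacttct
The window at Zfp64 held a Fox, a Zic and a GATA match, and that at Sall4 a Lef/Tcf and a GATA match. The Tdgf1 and Cbx8 sequences each held an octamer, which at Cbx8 shared a base with an AP-1 match, and the Galc window held 2 octamers, a Zic and a GATA match. The Smad6 region held an AP-1 match. The Adam23 region held 2 Lef/Tcf matches. GC content was 32% at Adam23 and 51.6% at Smad6, the lowest and highest of the 7.

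The 3 FLAG replicates were unequal. Replicate 3 listed 192 regions against 8021 and 8257 in replicates 1 and 2, and 80.2% of its regions fell in a Brg1-bound region, against 30.5% and 29.2%. Most bound regions therefore rested on replicates 1 and 2, and leaving out replicate 3 kept 2363 regions, whereas only 144 or 123 were found without replicate 1 or replicate 2. Listed regions inside bound regions were wider than those outside, with medians of 175 and 75 bp in replicate 1 and of 200 and 100 bp in replicate 2. The depth of each replicate is unknown, because the regions came without read counts. In 91.6% of the central 300 bp windows of bound regions every 32 bp word tested occurred once in the genome, against 82.7% of windows in distal H3K27ac regions that no FLAG list touched. The control chromatin carried H3K27ac in both replicates within 2.5 kb of the TSS of 13 of 16 mesoderm markers (Kdr, Cdx1 and Cdx2 lacked it), of 2 of 5 endoderm markers (Cer1 and Hhex), of 1 of 5 cardiomyocyte markers (Tnnt2) and of 0 of 5 neural markers, and also of 4 of 6 naive pluripotency markers, Klf4, Tbx3, Nanog and Pou5f1. Over all protein-coding genes this share was 47.7%. H3K27me3 was called there in all 3 control replicates at 8 of 16 mesoderm markers (T, Eomes, Evx1, Kdr, Pdgfra, Cdx1, Cdx2 and Lhx1), 4 of 5 endoderm, 5 of 5 neural, 3 of 6 naive pluripotency and 0 of 5 cardiomyocyte markers, and at 11.9% of all protein-coding genes. Of the mesoderm markers 10 of 16 and of the endoderm markers 4 of 5 were nearest to a bound region, beside 7.13% of all protein-coding genes, and of the neural, naive pluripotency and cardiomyocyte markers none was.

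The map was a large number of short sites, a minority of them in groups. Bound regions covered 0.824 Mb, with a median width of 275 bp (quartiles 200 and 400 bp, range 25 to 2475 bp). The median distance from the midpoint to the nearest TSS of a protein-coding gene was 19.4 kb. Within 1 kb of such a TSS lay 305 regions (12.8%), while 390 (16.3%) lay more than 100 kb away. Of 1529 regions more than 10 kb from the TSS, 684 (44.7%) were upstream of it. The 5 farthest regions included one at 1292 kb from Tsn and one at -1156 kb from Cntnap5a, both on chromosome 1, and the all-3 region shown above at 840 kb from Galc, which was wholly covered by H3K27ac in all 4 libraries.

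Chaining bound regions across gaps of at most 12500 bp gave 1555 regions that stood alone, 291 pairs and 75 loci of 3 or more, here called multi-site loci. The multi-site loci held 253 regions, or 10.6% of all, and spanned 1.15 to 32 kb with a median of 5.9 kb. In 68 of the 75 every region had the same nearest gene, 28 contained a promoter region (an edge within 2.5 kb of any annotated TSS) and 16 contained an all-3 region. Much of this grouping was at short range, since 567 bound regions (23.7%) had another within 1 kb, and 835 (34.9%) had another within 12500 bp. When FLAG regions up to 500 bp apart were first merged, so that a broad site split by the caller counted once, 66 multi-site loci were found. Regions in multi-site loci were less often over 100 kb from a TSS (7.51%) than those alone (16.8%), and of those more than 10 kb from a TSS 25.9% were upstream against 47.8%.

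**Figure D1:**
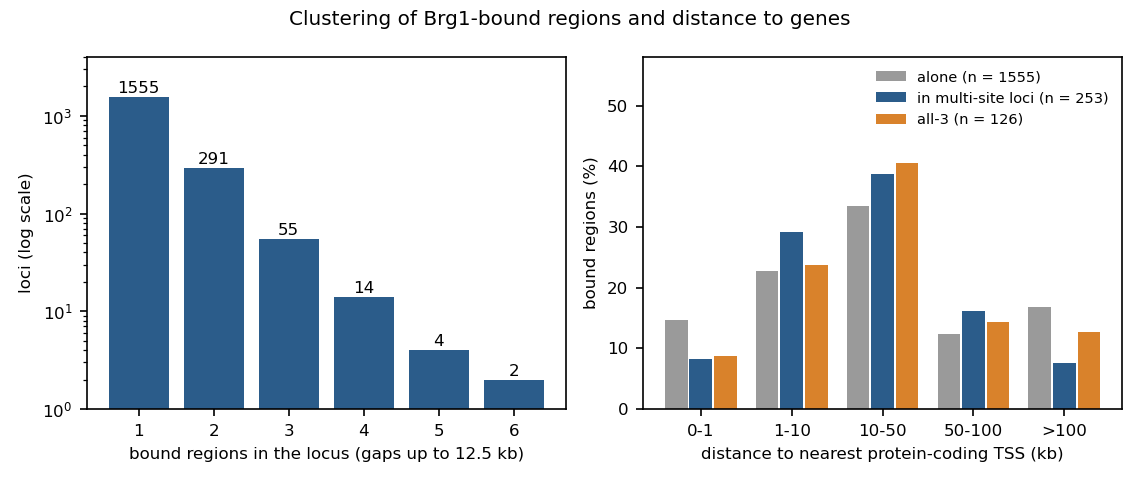
Left, number of loci (log scale) by the number of Brg1-bound regions they hold, with gaps of up to 12500 bp: 1555 regions stood alone and 2 loci held 6. Right, share of bound regions by distance from their midpoint to the nearest protein-coding TSS, for regions alone, in multi-site loci and in all 3 FLAG replicates.

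Bound regions were nearest to 1584 of 22225 protein-coding genes (7.13%). Of these, 1110 had 1 region, 474 had at least 2 (2.13% of all genes) and 173 had at least 3 (0.778%), and the last group took 678 regions, or 28.4% of the map. A gene that stands far from its neighbours is the nearest gene for more of the genome, and the median stretch nearest to a gene was 45.7 kb over all genes and 319 kb over the 173 genes. Per Mb of that stretch the 173 genes had 8.08 bound regions against 0.9 over all genes, but also 17.4 against 10.3 regions of H3K27ac found in both control replicates. Of those H3K27ac regions 26.9% held a bound region near the 173 genes and 5.49% over all genes. The genes were chosen for their bound regions, so these values describe them and are no test.

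Of the 15 genes nearest to the most bound regions, 6 (Eomes, Fzd7, Gata4, Runx1, Foxc1 and Maml3) are in the gene lists described below, and 9 are in none. Auts2, a gene of neural development, came first with 10 regions, but over a stretch of 1.94 Mb and with H3K27ac in both controls at 4 of them. Tgif1, which encodes a homeodomain repressor that limits Nodal and TGF-beta signalling, followed with 9, of which 7 lay 73.2 to 108 kb from its TSS inside Dlgap1, the next gene. All 9 Tgif1 regions were wholly covered by H3K27ac in both control and both 4-OHT replicates, at 5050 bp in each. Cxxc5, which encodes a zinc finger protein that restrains Wnt signalling, and Lrig3, a transmembrane protein gene, had 8 regions each, in stretches of 96.6 and 786 kb.

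Eomes, the T-box factor of the primitive streak, had 7 bound regions from -88.7 to 8.76 kb (chr9:118298076-118397200). The widest was 1025 bp at -88.7 kb, and that at 8.76 kb, 925 bp wide, was held by all 3 FLAG replicates. Of their 3625 bp, H3K27ac covered 3525 and 3625 bp with Brg1 (control) and 3075 and 3275 bp after 4-OHT, and 6 of the 7 regions kept the mark in each 4-OHT replicate. The region at -33 kb was the exception, with 250 and 350 bp of H3K27ac in the control replicates and none in either 4-OHT replicate.

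Fzd7, a Wnt receptor, had 7 regions between -71.9 and -1.17 kb, with 4 of them crowded between -11.4 and -8.88 kb inside a single stretch of H3K27ac. Here too 1 region, at -30.7 kb, had H3K27ac in both control replicates (400 and 450 bp) and in no 4-OHT replicate, while the other 6 kept it in both. Prtg, a receptor of the immunoglobulin superfamily, had 7, of which 3 stood between -27.1 and -25.9 kb and 4 between -9.26 and -0.63 kb. Gata4, a zinc finger factor of endoderm and heart, had 7, of which 3 were promoter regions and an all-3 region at -34.8 kb, and all 7 lay in H3K27ac of both control replicates. H3K27me3 was called at the same promoter in control replicates 2 and 3, and Gata4 was among the 27 genes with a bound region in H3K27me3 of at least 2 control replicates.

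Nsf, a membrane fusion ATPase gene, had 7 regions by distance, but 3 of them (chr11:103670126-103676175) lay in an intron of Wnt3, the ligand that starts the primitive streak, which also had a region of its own at -2.96 kb. Of the 4 inside Nsf, 3 had H3K27ac in both control replicates and in neither 4-OHT replicate, while the Wnt3 regions held it in at least 1 4-OHT replicate. Runx1, the factor that starts definitive blood formation, had 7, among them 4 between -181 and -170 kb. Foxc1, a forkhead factor of paraxial mesoderm, had 6, of which 4 lay inside Gmds, and 3 of these 4 had no H3K27ac in any library. Zfp608 (7), Fmnl2, Maml3, a Notch coactivator, and Lhfpl2 (6 each) completed the 15. A further gene with 6 regions, Rgma, was left out because ties were broken by the bases bound, and is named here after its values were seen. Nearest-gene assignment thus gave Nsf and Tgif1 sites that lie within Wnt3 and Dlgap1, and which gene a site serves was not tested.

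**Figure D2:**
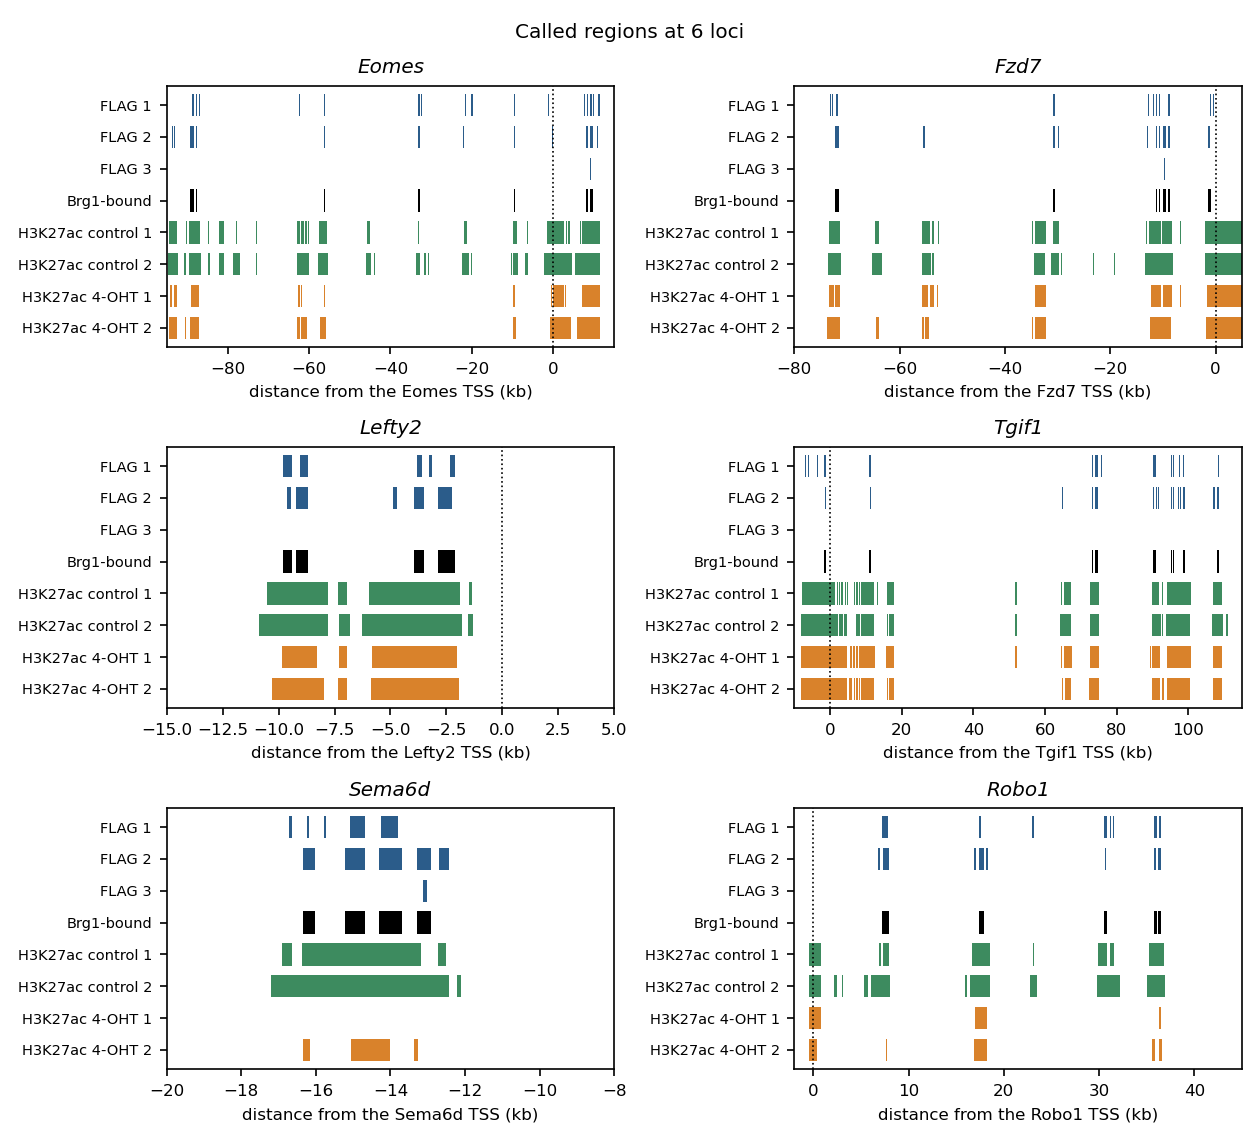
Called regions at 6 loci: FLAG replicates (blue), Brg1-bound regions (black), H3K27ac in control (green) and 4-OHT (orange) replicates, against distance in kb from a TSS of the named gene (dotted line, the start to which most of its bound regions were assigned). H3K27ac spans the bound regions of Tgif1 and Lefty2 in all 4 libraries, but in 4-OHT replicates not the bound region of Eomes at -33 kb, nor, in 4-OHT replicate 1, those of Sema6d.

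Of the 20 multi-site loci with at least 4 bound regions, 11 had H3K27ac at every bound region in all 4 libraries. The 10 described here are the 6 loci with 5 or 6 regions and, of the 14 with 4, the 4 with the most bases bound. The largest were Fmnl2, a formin that organises actin, with 6 regions in 32 kb of an intron (chr2:52787351-52819325), and Lhfpl2, with 6 in 18.6 kb (chr13:94940476-94959125). The Fmnl2 locus had 8825 and 10875 bp of H3K27ac in the control replicates and 6000 and 7750 bp after 4-OHT, whereas the Lhfpl2 locus had 225 and 975 bp in the control replicates and none after 4-OHT. In neither locus did the conditions overlap. H3K27me3 covered up to 625 bp of the Lhfpl2 locus in a control replicate and none of Fmnl2.

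Emb, a transmembrane glycoprotein gene, had 5 regions in 5.5 kb upstream of the TSS (chr13:118003801-118009300), one of them all-3 and 1250 bp wide. All 5 lay in a single H3K27ac region of 7350 bp, the one with the most bound regions inside. Of the locus, 5225 and 5500 bp were covered in the control replicates and 4925 and 5500 bp after 4-OHT, so the conditions overlapped. At the Tgif1 locus (5 regions in 18.4 kb) H3K27ac covered 10275 and 10775 bp and then 10200 and 10325 bp, again overlapping. Lefty2, a Nodal antagonist, had 4 regions in 7.67 kb (chr1:182813426-182821100), all wholly covered in all 4 libraries, and Bmper, a secreted BMP modulator, had 4 in 4 kb, also wholly covered. Lrig3, Fzd7 and Cxxc5 had 5, 5 and 4 regions in their loci.

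Sema6d, which encodes a semaphorin of axon and cell guidance, was the only 1 of these 20 with H3K27ac at all its bound regions in both control replicates and at none of them in a 4-OHT replicate (chr2:124463026-124466450). H3K27ac covered 3175 and 3425 of its 3425 bp in the control replicates, 0 bp in 4-OHT replicate 1 and 1350 bp in replicate 2. The 4-OHT values were both lower than the control values and far apart from each other. Over all 75 multi-site loci, H3K27ac covered fewer bases in both 4-OHT replicates than in either control replicate at 45 and more at 1. The values overlapped or were tied at the other 29. H3K27ac regions of both controls without a bound region were also less covered after 4-OHT. Of their bases 85.4 and 89.8% were covered in the control and 71.4 and 71.3% in the 4-OHT replicates. These regions were chosen by the control lists, which alone raises the control values. In 57 loci every bound region had H3K27ac in both control replicates and in 2 loci none had. No bound region of 6 loci was in a 4-OHT list, namely Lhfpl2, Lhfp, Olfm4, Fgfr2, Ldlrad3 and Dnahc11, named after their values were seen. Fgfr2 and Dnahc11 are the 2 loci where no bound region had the mark in both control replicates, so neither shows a loss from both.

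The all-3 regions were wider than those of exactly 2 replicates, with medians of 500 and 275 bp, and had another bound region within 12500 bp in 44.4% against 34.4%. A wider joined region has more room to meet a region of replicate 3, so the width is no independent support. The all-3 regions were nearest to 121 genes (0.544% of all). Their distribution over the annotation was close to the rest, with 23.8% at promoters (95% exact binomial interval 16.7 to 32.2%, counting error only) against 24.3%. The widest, 2475 bp, lay between Zfp64 (71.6 kb) and Sall4, which encodes a zinc finger factor of pluripotent cells, in a locus whose second all-3 region is nearest to Sall4 (-70.9 kb). It was followed by regions at Spred2, a Ras inhibitor of the FGF pathway (1750 bp, 32.3 kb, intronic), Dpysl5, a collapsin response protein of growth cones (1550 bp, 26.1 kb), Fam49a (1475 bp, 319 kb), Ccnl1 and Asb4 (1450 bp each), and Plk1s1 and Mid1 (1375 bp each). Pmepa1, a TGF-beta target that inhibits Smad signalling (1350 bp, -58.4 kb), Tnfrsf19, a Wnt target (1325 bp, -10.2 kb), Tnrc18 (1325 bp) and Bahcc1 (1300 bp) completed the 12 widest.

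H3K27ac was found in both control replicates at 106 of 126 all-3 regions (84.1%) and at 1592 of 2264 others (70.3%). The part of width in this difference was not tested. At 17 all-3 regions neither control replicate had it, and none of these 17 had it in a 4-OHT replicate. Their median width was 275 bp, against 512 bp for the all-3 regions with the mark in both controls. They included an intergenic region at Adam23 (shown above), a region in an intron of Rap1gap (chr4:137231901-137232050), and 2 wide regions, 1375 bp at Mid1 (chrX:166408301-166409675) and 1250 bp at -40.8 kb from Gm13051 (chr4:146023301-146024550). Of the rest of the map 438 regions (19.3%) had no H3K27ac in either control replicate.

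The bound genes were then read in the lists of 21 gene groups. The lists were chosen with earlier results of these data known, so the shares describe them and are no test. The share of a list's genes that had a bound region was above 7.13%, the share over all genes, in 19 of 21 lists, and the number of bound regions per Mb of their stretch of genome was above 0.9 in all 21. For mesoderm and endoderm regulators and for BMP, FGF and Notch genes both values were over 4 times the background. These lists also had more H3K27ac regions of both controls, from 13.3 per Mb (endoderm) to 27.7 (Notch), against 10.3 over all genes. Of H3K27ac regions found in both control replicates, 28.9% near endoderm regulators, 22.2% near mesoderm regulators and 2.4% near ribosomal protein genes held a bound region, beside 5.49% over all genes. Other lists lay between, among them Hox (22.2%, 2 of 9 regions), FGF (21.1%), cardiac (17.9%), guidance (16.9%), BMP (15.8%), neural (13.8%) and Notch genes (13.6%). BAF, Polycomb and sarcomere genes had 7.69, 6.14 and 5%. Shares of genes near 7.13% were those of Hox genes (3 of 39, 7.69%), ribosomal protein genes (5 of 78, 6.41%) and retinoic acid genes (1 of 19, 5.26%, Cyp26a1), although the compact Hox clusters had 7.09 regions per Mb.

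**Figure D3:**
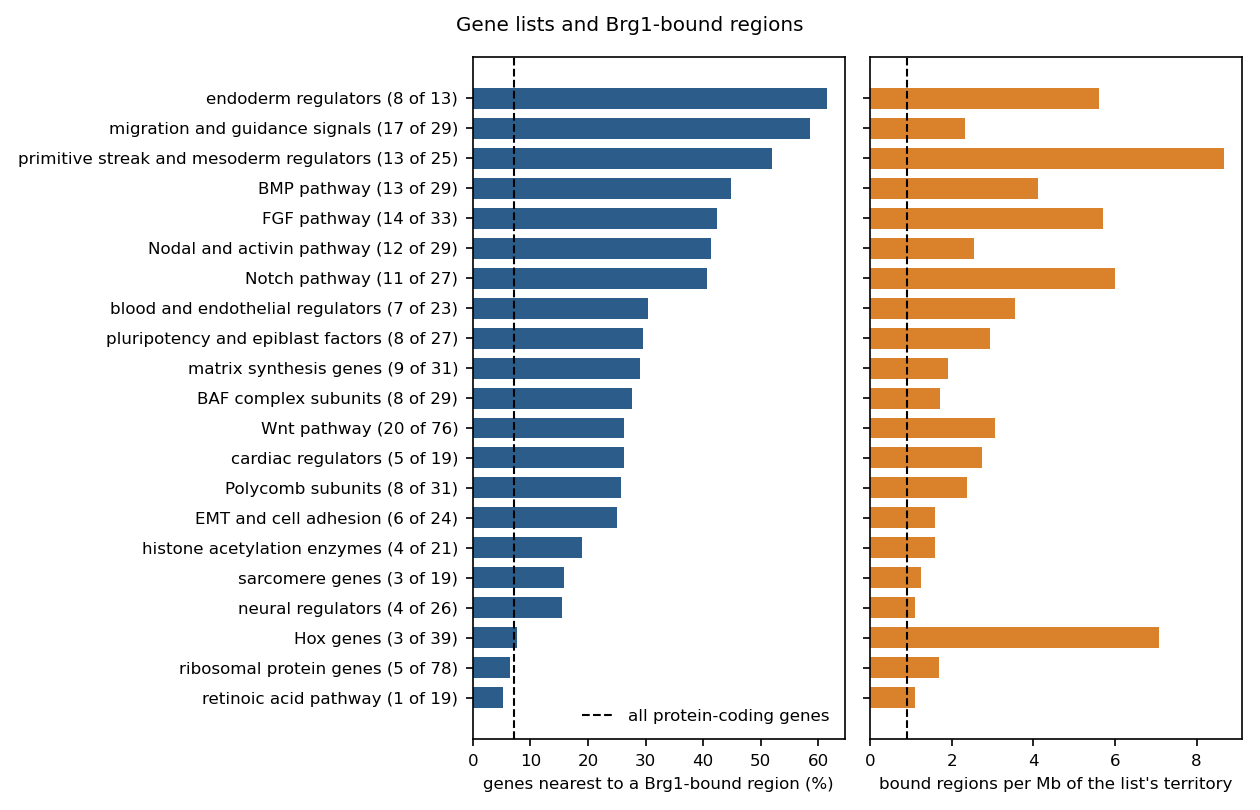
Left, share of each list's protein-coding genes that were nearest to at least 1 Brg1-bound region, with the count, and the share over all genes (dashed, 7.13%). Right, bound regions per Mb of the genome nearest to the list's genes, with the value over all genes (dashed, 0.9). Mesoderm regulators had the highest density, 8.68 per Mb.

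Among primitive streak and mesoderm regulators 13 of 25 genes (52%) had 37 bound regions, 8.68 per Mb. Besides Eomes (7) and Foxc1 (6) these were led by Lhx1, a LIM homeobox factor (5), and Irx3, a homeobox factor (4). The 3 Lhx1 regions between -79.5 and -67.2 kb were covered by H3K27ac, whereas that at -4.26 kb, 1225 bp wide, had none and was covered by H3K27me3 over 675, 1025 and 1100 bp in the control replicates and over 375, 1175 and 1100 bp after 4-OHT. Of the streak markers, T (Brachyury) had regions at -45 and -4.89 kb, Mesp1 at -4.21 and 4.05 kb, Tbx6 had 1, Fgf8 had 2 and Pdgfra, the receptor of paraxial mesoderm, had 3 between -2.44 and -0.828 kb. Mixl1, Mesp2, Msgn1, Evx1 and Snai1 had none, although H3K27ac marked the TSS of each in both control replicates. Of 37 regions, 27 had H3K27ac in both controls, and 5 of these were in no 4-OHT list, against 377 of 1698 (22.2%) over the whole map.

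Endoderm regulators had the highest share, 8 of 13 (61.5%), with Gata4 (7), Otx2 (3) and single regions at Cer1, a secreted Nodal and BMP antagonist, and Foxa1, among others. The Cer1 region was 1500 bp wide at -0.999 kb, and H3K27ac covered 1200 and 1500 bp of it in the control replicates against 0 and 325 bp after 4-OHT, without overlap. Cardiac regulators had 5 of 19 (26.3%), again with Gata4, then Myocd (2), Isl1 (2) and Smarcd3, and sarcomere genes, which are used later, 3 of 19 (15.8%) with 1 region each. Blood and endothelial regulators had 7 of 23 (30.4%), among them Runx1 (7), Nrp2 (4), Kdr (2) and Ets1 (2). Pluripotency and epiblast factors had 8 of 27 (29.6%), with Otx2, Sall4 (3 each), Tdgf1 and Sall1 (2 each). Neural regulators had 4 of 26 (15.4%) and 1.11 regions per Mb, next to 0.9 over all genes, and the region at Pax3, 1475 bp wide, had no H3K27ac in any library.

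In the Nodal pathway 12 of 29 genes (41.4%) had a bound region. The ligand Nodal had 2 at -12.2 and -11.5 kb, its co-receptor Tdgf1 had 2 within 2 kb of the TSS, one of them all-3, and the antagonists Lefty2 and Cer1 had 4 and 1. H3K27ac wholly covered the Nodal, Tdgf1 and Lefty2 regions in all 4 libraries, but not that of Cer1. In the BMP pathway 13 of 29 genes (44.8%) had one, led by Bmper (4) and by the target genes Id3 (3), Smad6, an inhibitory Smad (3), and Id2 (3, all between -304 and -269 kb and with H3K27ac in at most 1 control replicate).

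In the FGF pathway 14 of 33 genes (42.4%) had a bound region and 11 had at least 2, with 5.72 regions per Mb. The feedback inhibitors Il17rd and Dusp4, the receptor gene Fgfr2 and the ligand gene Fgf10 had 4 each. Dusp4 regions lay within 2.19 kb of the TSS in H3K27ac of all 4 libraries (1425, 1425, 1450 and 1450 bp), and those of Fgf10 at 44 to 47.1 kb. Fgfr2 differed, as 3 of its 4 regions had no H3K27ac in any library and that at -0.812 kb was covered by H3K27me3 over 325, 150 and 25 bp in the control replicates and not at all in the 3 4-OHT replicates. Further inhibitors, named after their values were seen, were Spry2 (3), Spry4 (2) and Spred2 (2).

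In the Wnt pathway 20 of 76 genes (26.3%) had a bound region. The receptor gene Fzd7 (7), the target gene Sp5 (3, one of them all-3) and the secreted antagonist gene Frzb (3) had the most, and 7 genes had 2 each, among them the co-receptor gene Ror1. Sp5 regions were wholly covered by H3K27ac in all 4 libraries (1975 bp in each) and the Ror1 regions, at 1.69 and 16.7 kb, had none. In the Notch pathway 11 of 27 (40.7%) had one, led by Maml3 (6), Lfng, a modifier of Notch receptors, the ligand gene Jag1 and Dll3 (2 each). The Lfng regions, both at the promoter, had 150 and 550 bp of H3K27ac in the control replicates and none after 4-OHT.

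Migration and guidance genes had a high share, 17 of 29 (58.6%), but are long and isolated, with a median stretch of 252 kb and 2.33 regions per Mb. Robo1, a receptor for Slit ligands, had 5 intronic regions between 7.59 and 36.3 kb (chr16:72670701-72699975), where 2075 and 2150 of the 2150 bound bp carried H3K27ac in the control replicates and 750 and 975 bp after 4-OHT. The conditions did not overlap. Its ligand gene Slit3 had 4 (1175 and 1250 bp, then 825 and 725 bp), Epha4, an ephrin receptor gene, 4 (1325 and 1600 bp, then 850 and 450 bp), whereas the apelin receptor gene Aplnr, active in mesoderm that migrates to the heart, had 4 that were wholly covered throughout (1825 bp). In EMT and adhesion genes (6 of 24, 25%) Cdh2, the N-cadherin gene, had 5 and Zeb2 2, and in matrix synthesis genes (9 of 31, 29%) Col1a2 and Has2 had 3 each. The 3 regions of Hoxb1, at 3.27 to 4.6 kb, had 875 and 975 bp of H3K27ac in the control replicates against 0 and 375 bp after 4-OHT.

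Genes of the chromatin machinery had few regions each. Of BAF subunits 8 of 29 (27.6%) had exactly 1, among them Smarce1, Arid1a, Dpf1 and Bcl11b. Of Polycomb subunits 8 of 31 (25.8%) had a bound region, with all-3 regions at Jarid2 (-78.3 kb), Phc2 (0.55 kb) and Cbx8 (-12.2 kb, shown above). The list of histone acetylation enzymes also holds deacetylases and readers of acetylated histones, such as Hdac4 and Brd2. Of its genes 4 of 21 (19%) had a bound region, 1 each at Ncoa3, Hdac4, Kat2b and Brd2. Densities of the BAF, Polycomb and acetylation lists were 1.72, 2.38 and 1.59 regions per Mb.

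H3K27ac at the bound regions was then compared between control and 4-OHT replicates, to describe the chromatin of the map after 4-OHT. The control lists overlapped 71.8 and 80.3% of bound regions and the 4-OHT lists 50 and 54.8%, so the conditions did not overlap. The means were 76% ± 6.01 and 52.4% ± 3.4 (SD, n = 2 per condition), a difference of -23.6 percentage points with p = 0.33 in a two-sided exact permutation test over libraries, the smallest p that 2 against 2 allows. The control lists also held more regions, 37590 and 41062 against 36000 and 32161 after 4-OHT. In bases covered the conditions overlapped, with 28 and 30.8 Mb against 28.5 and 26.1 Mb. The part of list size was not tested. At the few regions found without FLAG replicate 1 or 2 the difference was -8.33 or -10.6 points. By class it was -27.6 points at distal regions and -11.1 points at promoter regions. In all-3 regions it was -8.73 points (84.1 and 86.5%, then 77 and 76.2%), and -24.4 points in regions of exactly 2 replicates. In multi-site loci it was -15.6 points (88.5 and 94.1%, then 71.9 and 79.4%), and -25.4 points in regions alone. The differences between promoter and distal, all-3 and other, and multi-site and lone regions were 16.5, 15.7 and 9.76 points. Each had p = 0.33 in the exact permutation test of the difference, the smallest that 2 against 2 allows. All-3 regions and those in multi-site loci were also wider (medians 500 and 350 bp, against 275 bp in those of exactly 2 replicates and 250 bp in those alone), and the part of width in these differences was not tested.

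**Figure D4:**
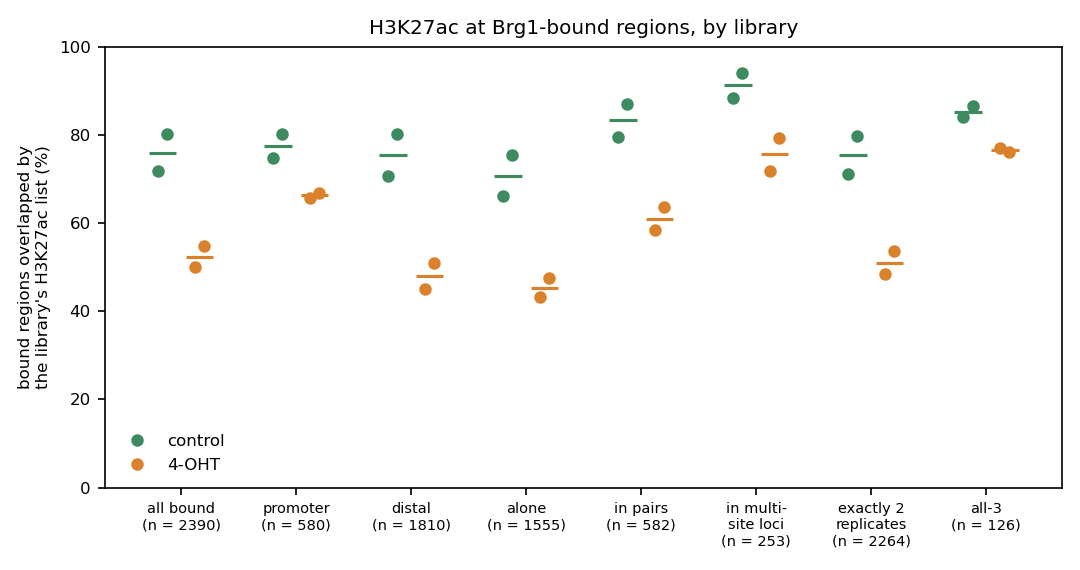
Share of Brg1-bound regions that the H3K27ac list of each library overlapped, for control (green) and 4-OHT (orange) replicates (points) with their mean (line, n = 2), by class of region. In every class shown both 4-OHT points lie below both control points, with a difference of means of -8.73 points in all-3 regions and -27.6 points in distal regions.

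Per region, 1698 bound regions (71%) had H3K27ac in both control replicates, 76% of them over their whole length. Of the 1698, 377 (22.2%) had it in neither 4-OHT replicate, beside 5411 of 27332 (19.8%) for all H3K27ac regions found in both control replicates. Among distal regions the order was the opposite, with 26.3% of such bound regions and 33.6% of H3K27ac regions that held no bound region. The last set is not the same comparator, and over all positions its share was 19.7%. A bound region (median 275 bp over the map) is also shorter than an H3K27ac region (650 bp for those distal ones), so these shares are of unlike units. All these sets were chosen for the mark in both control lists, which alone favours the control. No set chosen on the 4-OHT lists was compared. Per class of bound region the share in neither 4-OHT replicate was 10% at promoters, 26.3% at distal regions, 26.3% in regions alone, 9.38% in multi-site loci and 7.55% in all-3 regions. H3K27ac regions that held more bound regions were also wider. Those with 0, 1, 2 and 3 or more bound regions had median widths of 800, 1725, 2925 and 5575 bp, and 19.7, 24.1, 4.23 and 3.7% of them were in neither 4-OHT list. Promoters made up 50.2% of those with 0 and 29.3% of those with 1, and among distal ones the shares in neither list were 33.6, 30.2, 5.22 and 6.25%, so that the order of 0 and 1 turned. Among distal H3K27ac regions of 2 to 4 kb, the bases covered in the 4-OHT replicates were 61.6 and 65.7% for the 994 without a bound region, 49.9 and 60.8% for the 268 with 1 and 53.7 and 65.7% for the 75 with 2. The control replicates covered 85.1 and 94%, 82.2 and 99%, and 83.9 and 98.9% of these bases. At similar width the values with 2 bound regions thus overlapped those with none, and the values with 1 were lower than those with none in both replicates.

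Polycomb marks were called at few bound regions, and whether at fewer than elsewhere was not tested. H3K27me3 lists overlapped 1.24% ± 0.427 of bound regions in the control and 1.13% ± 0.523 in the 4-OHT replicates (SD, n = 3, exact permutation p = 0.7, and exact sign-flip p = 0.5 when paired by number). The sign of the difference changed without control replicate 2 or 4-OHT replicate 1. In the control the share was 3.74% at promoter and 0.442% at distal regions, and the lists covered 8.38 to 11 Mb. Suz12 lists overlapped 0.439% ± 0.0888 in the control and 1.21% ± 0.296 after 4-OHT (n = 2, exact permutation p = 0.33, the smallest possible, without overlap). The 4-OHT Suz12 lists also held more regions (3654 and 4016, against 2951 and 2913). In bases covered the conditions overlapped (3.58 and 4.77 Mb, against 3.68 and 4.07 Mb), and the part of list size was not tested. In 29 bound regions (1.21%), nearest to 27 genes, at least 2 control replicates had H3K27me3, and 7 of these also had H3K27ac in both control replicates. The widest were at Lhx1 (1225 and 625 bp), Rin3 (675 bp), Prdm8 (650 bp), Zfp423 (625 bp) and Fgfr2 (600 bp). The Lhx1 region of 625 bp at -1.17 kb carried both marks, with 350 and 600 bp of H3K27ac and 325, 300 and 250 bp of H3K27me3 in the control replicates. Opposite marks called in a mixed culture may come from different cells, which cannot be told apart here.

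Consensus sites differed little between distal bound regions and distal H3K27ac regions without FLAG. These sets were not matched, since 1269 of the 1810 bound regions (70.1%) had H3K27ac in both controls, as all of the others did. The windows were centred on the FLAG region in the former and on the H3K27ac region in the latter. In the central 300 bp of the 1810 distal bound regions the GATA site (AGATAAG) was found in 6.41% (95% exact binomial interval 5.32 to 7.64%, counting error only) against 4.88% of 10811 distal H3K27ac regions without FLAG, and the Fox site (TGTTTAC) in 5.64% (4.62 to 6.8%) against 4.16%. The AP-1 site (TGANTCA) was found in 9.83% (8.5 to 11.3%) against 13.6%, the Sp/Klf site (CCGCCC) in 6.19% (5.12 to 7.4%) against 7.57%, the CTCF core (AGGTGGC) in 4.31% (3.42 to 5.35%) against 5.55% and NF-Y (CCAAT) in 33.9% (31.7 to 36.2%) against 31.1%. For the T-box (AGGTGTGA), Lef/Tcf (CTTTGAT), Foxh1 (AATCCACA), Zic (CAGCAGG), Pou octamer (ATGCAAAT), TEAD (CATTCC), Smad (GTCTAGAC), E-box (CATCTG), Ets (ACCGGAAG) and NRF1 (GCGCATGCG) sites, the unbound share was inside the interval of the bound regions. In 32851 RefSeq promoters of the same length (GRCm38) GATA was found in 3.04%, Fox in 3.65%, AP-1 in 7.81% and Sp/Klf in 35.7%. Distal windows of regions held by a single FLAG list gave 4.85% for GATA and 9.42% for AP-1. Median GC content was 45.3% in distal bound windows and 47.7% in unbound H3K27ac windows, and its part in these shares was not tested. None of the 16 consensus sites contains another, but matches may share bases.

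**Figure D5:**
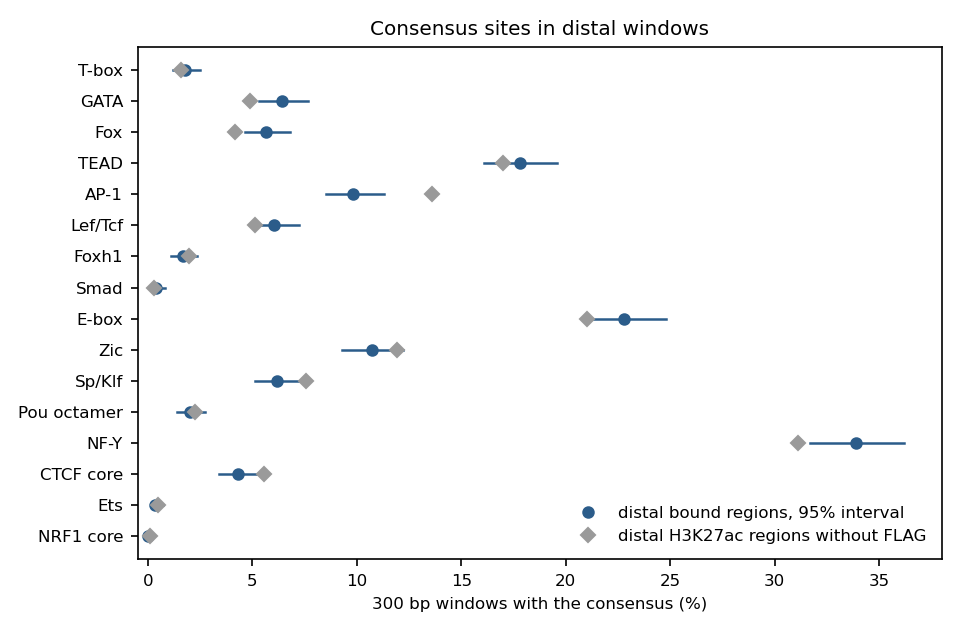
Share of 300 bp windows with a match, on either strand, to each consensus site, in distal Brg1-bound regions (blue, with 95% exact binomial interval) and in distal H3K27ac regions that no FLAG list touched (grey). GATA and Fox lie higher and AP-1 lower in the bound windows, and most other sites lie close together.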

How the data were processed

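Anti-FLAG, H3K27ac, H3K27me3 and Suz12 ChIP-seq were done on day 4 cultures, and samples were grouped by their labels. The authors aligned reads to mm9 (Bowtie is named in the submitters' processing notes, without a version) and deposited 1 list of enriched regions per ChIP replicate, called separately over input by Poissonian modelling, at a p-value threshold of 1e-06 with at least 2-fold enrichment for FLAG per the labels, and at 1e-12 for the other marks as named in the lists. Each list holds chromosome, start and end on a 25 bp grid, without score, count or depth, so only called regions were compared and precision could be judged only from replicates.

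Regions were merged when they shared 1 bp, and bound regions needed at least 2 FLAG replicates. Midpoints were given to the nearest TSS of any transcript of a protein-coding gene in the GENCODE annotation of mm9 (22225 gene symbols), and distances are negative upstream. Promoter regions had an edge within 2.5 kb of any annotated TSS. Multi-site loci were chains of at least 3 bound regions with gaps up to 12500 bp. Marks were compared by the share of bound regions each library's list overlapped, with two-sided exact permutation tests over libraries, the p-values measuring the spread between these samples. Intervals are exact binomial at 95%. Repeats were checked with 32 bp words, every 10 bp. Genes named (ties broken by bases bound) were the 15 with the most bound regions, those of the 10 largest multi-site loci and of the 12 widest all-3 regions, up to 4 per list with the most regions, marker genes, the 6 widest regions in H3K27me3 and the 5 farthest from a TSS. Genes of the lists that the annotation did not hold were left out. Members and gene lists were chosen with earlier results of these data known.

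Same-numbered control and 4-OHT replicates were checked for pairing by the correlation of their deviations from the condition means over bound regions. It was 0.692, 0.595 and 0.608 for H3K27me3, so that its numbers pair the samples as judged from the lists. For Suz12 it was 0.628, about as high but from 2 numbers, and for H3K27ac 0.0681, also from 2. The calculations were tested on simulated regions. Python 3.11.15, NumPy 2.4.6, SciPy 1.17.1, numba 0.67.0 and Matplotlib 3.10.9 were used. The input samples were not used here.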

Additional observations from a re-analysis of the deposited data

How the results depend on the processing

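The map rests on FLAG replicates 1 and 2. Leaving out each FLAG replicate gave 123 to 2363 bound regions, 117 to 1568 genes and 0 to 72 multi-site loci, the low values without replicate 1 or 2. Leaving out FLAG regions under 100 bp moved the all-3 count from 126 to 55. Other overlaps, merging and gaps kept the counts within 1.5 times. With regions up to 500 bp apart merged, Lrig3 had 5 and Runx1 4 regions and 3 retinoic acid genes were bound. With regions under 100 bp left out, Prtg had 4, and 3 cardiac, 5 Polycomb and 3 ribosomal protein genes were bound. Among bound regions of at least 200 bp, an alternative chosen after seeing the data, 3 cardiac and 3 ribosomal protein genes were bound.

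The H3K27ac difference was -23.8 to -8.33 points with each FLAG replicate left out and -27.8 to -19.4 points with each H3K27ac replicate left out, and kept its direction under every alternative run. In the paired analysis (replicate block, exact sign-flip test) p was 0.5 for H3K27ac (-23.6 points), H3K27me3 (-0.112 points) and Suz12 (0.774 points). The smallest p of that test is 0.5 for 2 pairs and 0.25 for 3, so it could change no call. The H3K27me3 difference turned positive without control replicate 2 (0.0418 points) or 4-OHT replicate 1 (0.181 points), its range being -0.356 to 0.181 points, and was -0.739 points (exact permutation p = 0.1, the smallest possible) when marks within 1 kb counted. The Suz12 difference was 0 points without FLAG replicate 2 and up to 0.783 points without another, and 0.565 to 0.983 points with each Suz12 replicate left out. The cause of these changes was not tested. With 2 or 3 replicates no test could pass 0.05. The smallest p of the exact permutation test is 0.33 for 2 against 2 and 0.1 for 3 against 3.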

Other observations

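Chromosome X was nearly empty of bound regions. It held 6 of 2390 (0.251%), or 0.036 per Mb, whereas the autosomes ranged from 0.591 per Mb on chromosome 14 to 1.73 on chromosome 11. The lists of FLAG replicates 1, 2 and 3 held 0.324, 0.23 and 1.04% of their regions on X, against 2.19 to 2.38% in the 4 H3K27ac lists, 0.781 to 1.58% in the 6 H3K27me3 lists and 1.18 to 1.37% in the 4 Suz12 lists. Replicate 3, with 2 regions on X, lay within the range of the H3K27me3 lists.

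Of the 126 all-3 regions 17 lay on chromosome 12, which held 120 of all 2390 bound regions.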
